A study of Drosophila melanogaster with 2 samples.

Results

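Ftz-F1 peaks that lie between genes and away from promoters numbered 268, out of 3416 peaks off the X chromosome and 3960 peaks in the whole list (7.85% of the off-X peaks, 95% Wilson interval 6.99 to 8.80). A peak was counted here when its summit, the position the deposited list gives as its highest point, lay in no annotated gene and more than 500 bp from every annotated transcript start. Such peaks are called distal intergenic peaks below. The other off-X peaks were 2106 promoter peaks, with a summit within 500 bp of a start, 918 distal intron peaks and 124 distal exon peaks. Within the list the choice used position only, not signal, replicate ranks or sequence. The list itself had already been thresholded on the ranks of both replicates, and sequence can vary with position.

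The data are chromatin immunoprecipitation sequencing from whole Drosophila melanogaster embryos of pooled male and female sex, 0 to 24 hours old. The flies were a transgenic strain, ftz-f1-GFP, that makes Ftz-F1 with green fluorescent protein fused to its C-terminus, and an anti-GFP antibody was used. There was 1 group with 2 biological replicates, labelled 1 and 4, of the same strain, and no second condition. The labels do not say whether the replicates came from separate cultures, nor what drives the transgene, and whole embryos mix every cell type and stage of the first day. The peaks are the authors' thresholded list by irreproducible discovery rate (IDR), a method that retains entries ranked alike in both libraries. Read depth is not known from peak lists, so all intervals and tests over peaks cover counting error within this list only.

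Ftz-F1 is an orphan nuclear receptor that binds DNA as a monomer, at a nuclear receptor core motif preceded by an extension on its 5′ side. Maternal Ftz-F1 acts with the homeodomain protein Fushi tarazu in segmentation of the early embryo, and later Ftz-F1 is a competence factor for responses to the steroid hormone ecdysone. Sequence between genes can hold enhancers, silencers and insulators as well as unannotated promoters, and a peak there does not by itself name the gene it acts on.

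The sequences below come from 8 of the strongest distal intergenic peaks that hold the Ftz-F1 site within 46 bp of the summit, followed by the peak with most sites and by the strongest 2 peaks without one. The site was written YCAAGGYCR, where Y is C or T and R is A or G, and was sought on both strands. Each line gives 101 bases of the plus strand centred on the summit, from the release 6 reference assembly (dm6), with the site in capitals. Where the site is on the minus strand the capitals show its reverse complement.
Eip75B 3′ flank, chr3L:17950511-17950611: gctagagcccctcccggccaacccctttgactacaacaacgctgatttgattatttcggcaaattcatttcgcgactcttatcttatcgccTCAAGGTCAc
CG5290 5′ flank, chr3L:17913278-17913378: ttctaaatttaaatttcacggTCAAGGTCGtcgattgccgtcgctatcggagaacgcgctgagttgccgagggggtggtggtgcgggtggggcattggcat
CG5290 to Eip75B, chr3L:17916167-17916267: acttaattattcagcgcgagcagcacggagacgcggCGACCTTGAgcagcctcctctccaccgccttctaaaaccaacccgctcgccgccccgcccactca
Alp13 to Fmr1, chr3R:10080877-10080977: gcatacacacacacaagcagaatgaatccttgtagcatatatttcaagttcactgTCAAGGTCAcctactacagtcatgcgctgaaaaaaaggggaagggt
plh to corto, chr3R:5054832-5054932: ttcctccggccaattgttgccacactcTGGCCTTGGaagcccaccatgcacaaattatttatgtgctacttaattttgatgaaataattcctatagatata
CG5290 to Eip75B, chr3L:17928294-17928394: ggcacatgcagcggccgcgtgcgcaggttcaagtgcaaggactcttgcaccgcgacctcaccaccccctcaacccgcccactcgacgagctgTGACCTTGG
RFeSP to chinmo, chr2L:1632080-1632180: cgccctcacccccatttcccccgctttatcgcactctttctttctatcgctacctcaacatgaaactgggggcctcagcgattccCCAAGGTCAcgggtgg
CG14315 to CG7218, chr3R:18160564-18160664: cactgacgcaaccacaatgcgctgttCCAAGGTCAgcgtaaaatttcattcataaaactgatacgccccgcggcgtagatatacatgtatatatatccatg
grim 5′ flank, chr3L:18305941-18306041: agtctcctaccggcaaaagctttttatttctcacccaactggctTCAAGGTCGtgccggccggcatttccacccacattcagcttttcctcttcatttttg
Hacd1 to Rh5, no site, chr2L:12006428-12006528: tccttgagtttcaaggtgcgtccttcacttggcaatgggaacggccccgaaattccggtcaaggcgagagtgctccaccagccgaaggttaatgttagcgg
COX7AL2 to CG31668, no site, chr2L:2198835-2198935: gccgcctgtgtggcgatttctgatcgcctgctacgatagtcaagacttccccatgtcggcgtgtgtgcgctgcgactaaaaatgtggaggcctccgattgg

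The first question was whether distal intergenic summits carry the sequence that Ftz-F1 is known to bind. The site lay within 100 bp of 25 of 268 distal intergenic summits (9.33%, 95% Wilson interval 6.40 to 13.4) and in 4 of 268 control windows of the same size placed 1000 bp to the right (1.49%, interval 0.582 to 3.77). This was a 6.25-fold difference, with 24 peaks holding the site only at the summit and 3 only in the control (exact McNemar test, two-sided, adjusted p = 5.91e-04 over 12 motifs). The control windows were placed by distance alone, so some lie in genes, near starts or at other summits. Over all 3416 off-X peaks the share with a site at the summit was 6.35%. At distal intron summits it was 9.69% (89 of 918), and the difference from the distal intergenic share did not pass the threshold of 0.05 (odds ratio 0.958, Fisher's exact test, two-sided, adjusted p = 0.907). At promoter summits it was 4.04% (85 of 2106), and the distal intergenic share was higher (odds ratio 2.45, adjusted p = 0.00253 over 5 Fisher comparisons). With the shorter site CAAGGTCA the difference from promoters no longer passed (odds ratio 2.31, Fisher's exact test, adjusted p = 0.0653).

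**Figure D1:**
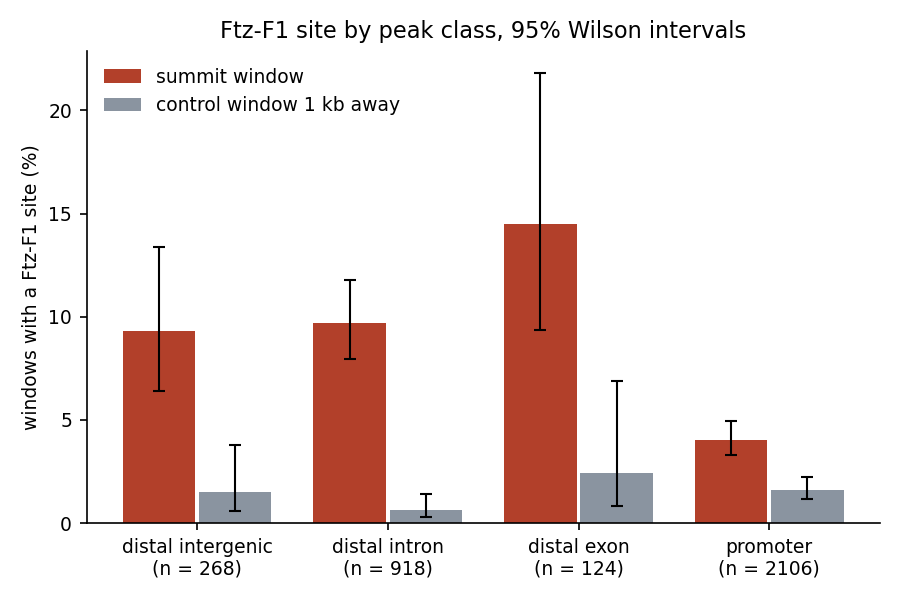
Share of peaks with a Ftz-F1 site within 100 bp of the summit (red) and in a control window 1 kb away (grey), by class of off-X peak, in percent, with 95% Wilson intervals. Distal intergenic peaks stood at 9.33% and their control windows at 1.49%, beside 9.69% at distal intron summits and 4.04% at promoter summits.

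The 25 peaks held 28 sites, and the centre of the nearest site was a median of 21 bp from the summit. In 22 of the 25 it was within 50 bp of it. The site nearest the summit read CCAAGGTCA in 8 peaks, TCAAGGTCA in 6 and TCAAGGTCG in 6. It was on the plus strand in 15 peaks and on the minus strand in 10. Most of the distal intergenic peaks had no site. Of the strongest 20, 3 had one, beside 25 of all 268 (9.33%). In the upper part of the list by signal value (ranks up to 1980), 19 of 149 distal intergenic peaks had a site (12.8%, interval 8.32 to 19.1). Below that rank the site was in 6 of 119 (5.04%, interval 2.33 to 10.6). These intervals overlap in part, and the difference was not tested.

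Among the other motifs sought in the same windows, the nuclear receptor core AGGTCA was at 37 distal intergenic summits and in 17 control windows (2.18-fold, adjusted p = 0.00889, exact McNemar test), and at 11.1% of all off-X summits. That core is contained in many full sites, and without them it was at 22 summits and in 15 control windows. The GAGA motif GAGAGA, bound by the GAGA factor of Polycomb response elements and promoters, was at 40 summits and in 23 control windows (1.74-fold, exact McNemar test, adjusted p = 0.0426), beside 15.2% of all off-X summits. The homeodomain motif YAATTA was at fewer summits than control windows, 56 against 88 (0.636-fold, exact McNemar test, adjusted p = 0.00584), beside 17.9% of all off-X summits. Base composition moved with this comparison. The median GC content was 46.8% in summit windows and 42.8% in control windows, summit windows had the higher GC in 163 of 268 pairs, and its part in the motif differences was not tested. A reversed form of the site with the same letters, RCYGGAACY, was at 0 summits and in 7 control windows (exact McNemar test, adjusted p = 0.0375), the opposite direction to the site itself. It was at 0.585% of all off-X summits (20 of 3416), and a count of 0 has an upper Wilson bound of 1.41% here. DREF and M1BP motifs, which belong to promoters of widely expressed genes, were at 0 and 1 distal intergenic summits, against 3.60% and 3.45% of all off-X summits, and neither difference from the control windows passed. The Zelda, E-box, GATA and Grainyhead motifs did not pass either. They were at 2, 17, 91 and 1 summits, against 5, 17, 92 and 0 control windows. Over all off-X summits these motifs were at 0.907%, 14.8%, 31% and 0.527%, so the E-box stood at 6.34% of distal intergenic summits, against 14.8% of all off-X summits, a difference that was not tested.

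The signal value of distal intergenic peaks, the authors' own measure of peak strength on a scale the files do not state, had a median of 136 (quartiles 112 and 208) and ran from 92.4 to 2261. The medians were 130 for distal intron peaks and 132 for promoter peaks. Of the distal intergenic peaks, 77 of 268 (28.7%, interval 23.6 to 34.4) were among the strongest 854 of the off-X list, against 777 of 3148 other peaks (24.7%, interval 23.2 to 26.2). The difference did not pass the threshold (odds ratio 1.23, Fisher's exact test, adjusted p = 0.237), and it passed when summits from 250 bp outward were counted (odds ratio 1.40, Fisher's exact test, adjusted p = 0.0259).

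Replicate ranks are given as a description, because the IDR step retains entries ranked alike in both libraries and so favours agreement. A peak of replicate 1 overlapped all 268 and a peak of replicate 4 overlapped 266. The exceptions were a peak between hbt and CG16826, ranked 2187 in replicate 1, and a peak between CG12164 and Dscam1, ranked 2341. The median rank was 1865 in replicate 1 and 1838 in replicate 4, out of 30000 entries in each replicate's list. The ranks were within 2-fold of each other for 159 of 266 peaks (59.8%) and differed by more than 4-fold for 34 (12.8%). In the other off-X peaks these shares were 57.1% and 12.4%. Among the 34, replicate 4 had the weaker rank in 20 and replicate 1 in 14. Spearman's rho of the replicate signal values was 0.524 over the 266 distal intergenic peaks and 0.459 over 3139 other off-X peaks, both from the same libraries and given as a description. Both replicates listed an overlapping peak among their strongest 3960 for 202 of the 268 distal intergenic peaks (75.4%), against 2205 of 3148 others (70.0%) and 70.5% of all off-X peaks. That difference did not pass (odds ratio 1.31, Fisher's exact test, adjusted p = 0.175), and it passed when only protein-coding gene models were used (odds ratio 1.39, Fisher's exact test, adjusted p = 0.032). Of the 268, 18 shared their nearest replicate peak with another member, so their ranks are not separate measurements.

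**Figure D2:**
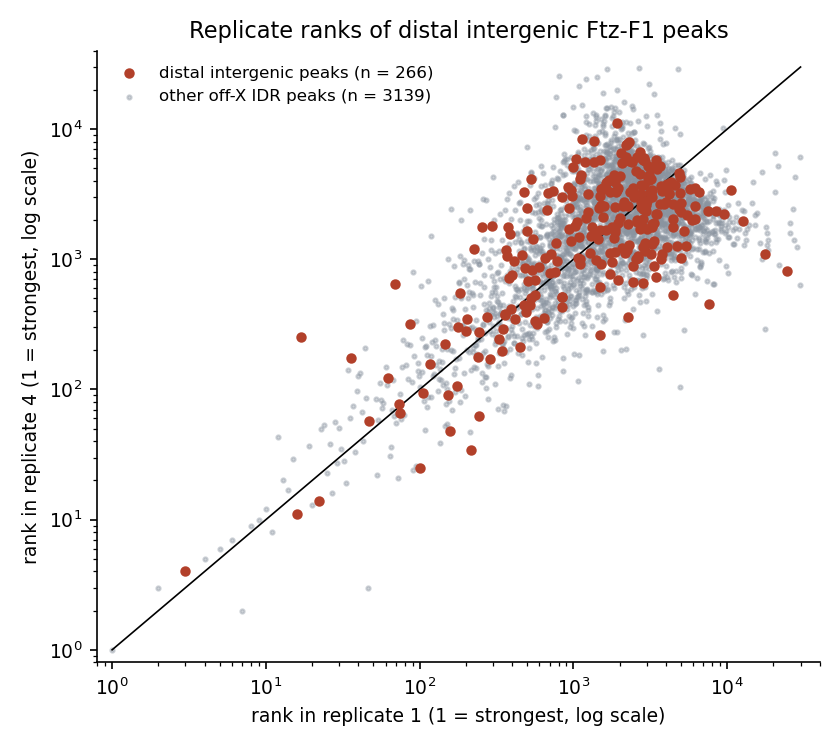
Rank in replicate 1 (horizontal, log scale) and in replicate 4 (vertical, log scale) of 266 distal intergenic peaks (red) and 3139 other off-X peaks (grey), with the line of equal ranks. The red points lie within the spread of the grey ones, and their ranks were within 2-fold of each other for 59.8% of peaks.

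The peaks on which the replicates differed most came in both directions. A peak between Hacd1 and Rh5 ranked 24505 in replicate 1 and 820 in replicate 4. It lay 717 bp from the strongest distal intergenic summit of all. A peak between RYBP and Ppa ranked 7614 in replicate 1 and 453 in replicate 4, and one between hry and SrpRbeta ranked 17624 and 1099 in the same order. Each of those lay 206 bp from a stronger summit. In the other direction, a peak between CG15615 and CG5550 ranked 17 in replicate 1 and 254 in replicate 4. A peak between E23, an ecdysone-induced transporter gene, and CG8838 ranked 69 in replicate 1 and 649 in replicate 4. A peak 650 bp upstream of CG14762 and 16878 bp from Optix, a homeobox gene of eye development, ranked 528 in replicate 1 and 4172 in replicate 4. These peaks lay between 1229 and 4610 bp from the next summit.

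The strongest distal intergenic peak had its summit at chr2L:12006478, 1675 bp upstream of Rh5, which encodes a rhodopsin of the eye, and 4212 bp upstream of Hacd1, a gene of fatty acid elongation transcribed the other way. Its signal was 2261 in the pooled data, 1099 in replicate 1 (rank 3) and 1201 in replicate 4 (rank 4). The next, at chr2L:2198885, lay 973 bp upstream of COX7AL2, a gene like a cytochrome c oxidase subunit, with a signal of 1160 and ranks 16 and 11 in replicates 1 and 4. The Polycomb group gene Psc had a peak 10014 bp beyond its 3′ end, beside CG13321, with a signal of 1008 and ranks 22 and 14. None of these 3 peaks held a Ftz-F1 site. A second peak near Rh5, beyond its 3′ end at chr2L:12012405, had a signal of 692 and ranked 101 in replicate 1 and 25 in replicate 4.

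The strongest distal intergenic peak with a site lay 392 bp beyond the 3′ end of Eip75B, at chr3L:17950561. It had a signal of 639 and ranked 47 in replicate 1 and 57 in replicate 4. Eip75B encodes a nuclear receptor of the early ecdysone response. A peak with a site 110 bp beyond the 3′ end of CG8929 followed, with a signal of 553 and ranks 36 and 173, and then the peak 763 bp upstream of CG5290, at the far end of the interval from Eip75B, with a signal of 552 and ranks 157 and 48. The rest of the strongest 8 with a site lay between CG12824 and Gapdh1, a glycolysis gene (signal 267), between CG5290 and Eip75B again (242), near scaf (239), between Alp13 and Fmr1 (229) and between plh and corto (172). Fmr1 encodes the fly relative of the fragile X protein, and corto a chromatin factor. The peak with most sites, 3, lay 1574 bp upstream of the cell death gene grim, had a signal of 161 and ranked 1055 in replicate 1 and 1942 in replicate 4. It was picked after its values were seen.

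Other peaks among the strongest 20 flanked Jhbp2 and Jhbp1, genes named for juvenile hormone binding (signal 559, ranks 74 and 66), and MESR6, beside Mkp3, a phosphatase of the MAP kinase pathway (signal 541, ranks 73 and 77). A peak 3167 bp upstream of tara had a signal of 438 and ranks 176 and 107. One 1243 bp upstream of Ae2, an anion exchanger gene, had a signal of 416 and ranks 87 and 316. In these 4 the ranks of the replicates differed by up to 3.63-fold.

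Most distal intergenic peaks were alone in their gap, and a minority shared gaps. A gap is the stretch between the nearest annotated genes of any kind, and 5483 off-X gaps had sequence that met the rule. The 268 peaks lay in 189 of these gaps (3.45%), alone in 150 of them, while 25 gaps held 2 and 14 gaps held 3 or more. Those 14 gaps held 68 peaks, or 25.4% of the total. Some neighbours were summits of one wide region. The 268 peaks formed 245 regions of overlapping peaks, and 166 had the common width of 444 bp.

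Crowding was not limited to intergenic peaks. Another summit of the list lay within 5000 bp of 175 of 268 distal intergenic summits (65.3%), against 610 of 918 distal intron summits (66.4%), a difference that did not pass (odds ratio 0.95, Fisher's exact test, adjusted p = 0.907). The share was 60.2% over all off-X peaks. Within 10000 bp the share was lower for distal intergenic summits (odds ratio 0.674, Fisher's exact test, adjusted p = 0.0499). The nearest other summit was a median of 2219 bp away and was itself distal intergenic for 123 peaks, at a promoter for 101, in an intron for 35 and in an exon for 9. The same split over all off-X peaks is not given. Of the 268, 42 shared an interval with or overlapped another distal intergenic peak, so their nearest summit can lie in the same region.

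The interval between RFeSP and chinmo held 14 of the 268 distal intergenic peaks, more than any other interval between protein-coding genes. Chinmo is a BTB zinc finger protein that sets temporal identity in neurons and is known as an early factor opposed by the ecdysone response. All 14 peaks there lay upstream of chinmo, and 12 of them shared 1 gap of 20910 bp, chr2L:1626022-1646931. Their signals in that gap ran from 100 to 516 with a median of 166. The strongest, 14549 bp from chinmo, ranked 62 in replicate 1 and 123 in replicate 4. One of the 14 held a site, the peak at chr2L:1632130 with a signal of 163.

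The interval between CG5290 and Eip75B held 13 peaks, 6 of them with a site. They lay beyond the 3′ end of Eip75B, which is on the minus strand at chr3L:17950953-18064696. In the longest gap, chr3L:17912566-17934031, there were 10 peaks with signals from 112 to 552, and 4 had a site. The remaining 3 peaks lay near Eip75B itself, at 392, 1536 and 4373 bp from its end. Outside this interval 19 of 255 distal intergenic peaks had a site (7.45%). Without the 3 gaps with most members the site was at 20 of 240 summits (8.33%), against 3 of 240 control windows (6.67-fold, exact McNemar test, adjusted p = 0.00586), a setting chosen after seeing the data.

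**Figure D3:**
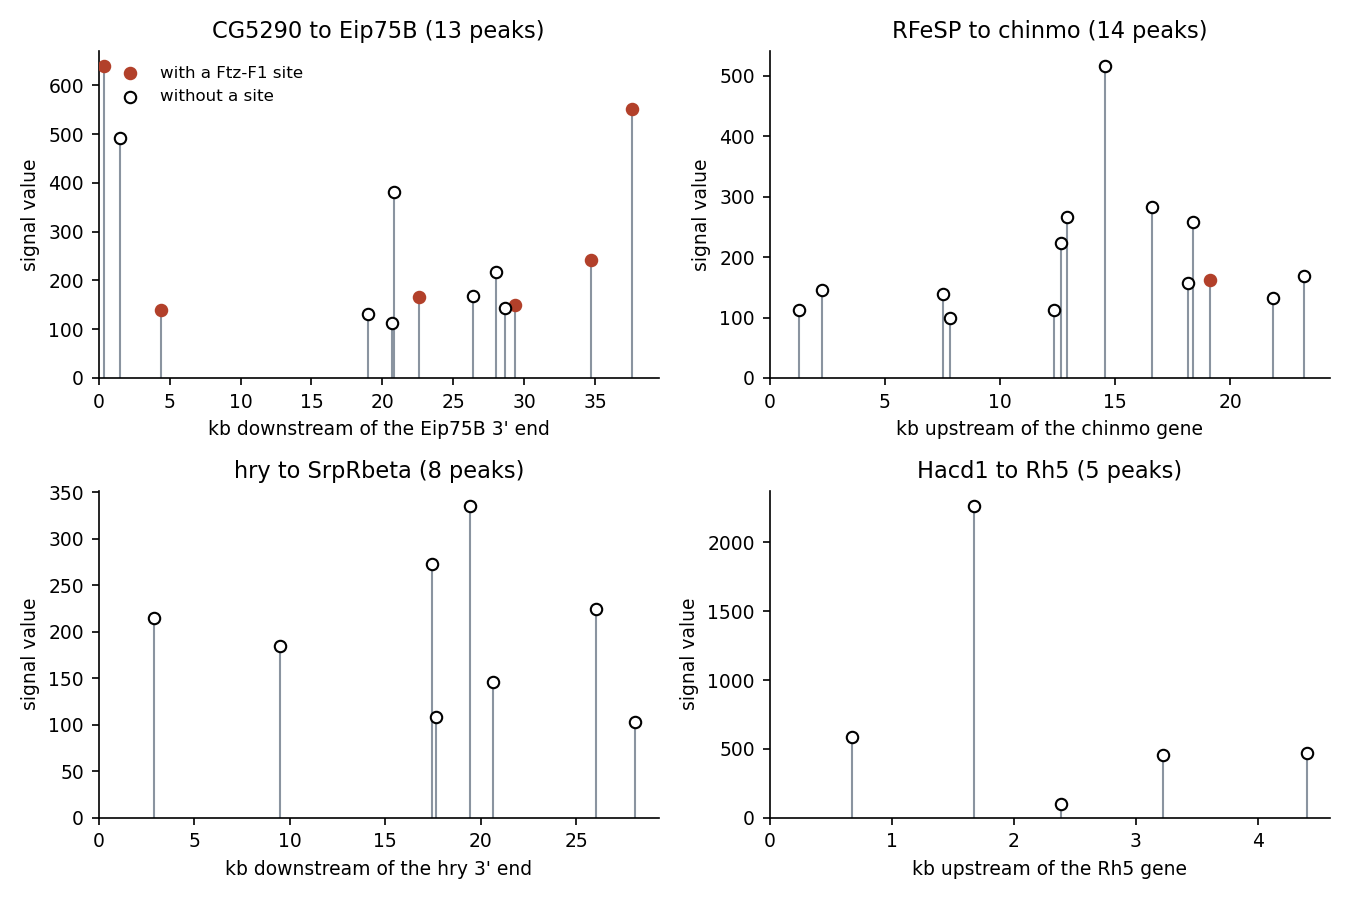
Signal value (vertical) of each distal intergenic peak in 4 intervals between protein-coding genes, by distance in kb from the gene named under each panel, with peaks that hold a Ftz-F1 site in red. Between CG5290 and Eip75B 6 of 13 peaks had a site, and between RFeSP and chinmo 1 of 14 did, while the 8 peaks between hry and SrpRbeta and the 5 between Hacd1 and Rh5 had none.

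The pair-rule gene hry had 8 peaks beyond its 3′ end, toward SrpRbeta, with signals up to 335, and 2 more on its other side. In the longest gap toward SrpRbeta, 25757 bp, 6 peaks had signals from 103 to 335 and none had a site. Around Rh5 there were 9 peaks. The 5 between Hacd1 and Rh5 had signals from 99.0 to 2261 and lay in 2 overlapping peak intervals, 4 summits in one of 3775 bp and 1 in one of 1081 bp, and the 4 beyond the 3′ end of Rh5 had signals from 150 to 692. The gap between COX7AL2 and CG31668 held 6 peaks in 5808 bp, with signals from 120 to 1160. The gene tara, a regulator of the cell cycle and of sleep, had 6 peaks upstream of it, between 827 and 18232 bp away, in 4 gaps separated by non-coding genes. Their signals ran from 103 to 438, and 1 of the 6 had a site.

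The remaining gaps with 3 peaks each are named here by protein-coding genes on 1 or both sides, though some of them end at non-coding or tRNA genes. The gap beyond the 3′ end of Su(z)2, a Polycomb group gene related to Psc, had peaks with signals from 94.7 to 357. Between RYBP, which encodes a partner of Polycomb proteins, and Ppa the peaks had signals from 236 to 318. The peaks upstream of foxo, a transcription factor of insulin signalling, ran from 137 to 180. Those between Tim17b2 and lace, which encodes an enzyme of sphingolipid synthesis, ran from 125 to 267. Those between plh and corto ran from 95.9 to 172, with 1 site. The gap from CG9932 to a non-coding gene, on the side of Ttc30, had signals from 92.6 to 239. The whole interval between CG9932 and Ttc30 held 4 peaks in 2 gaps. The peaks between hng3 and CG13898 had signals from 94 to 123. The genes named in this paragraph belonged to no list below.

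The longest gap with several peaks, 75047 bp between NijA and CG43245, held the 4 peaks farthest from any start. Their summits lay 34615, 32115, 31837 and 19018 bp from the start of CG43245, with signals of 117, 106, 93.1 and 114. Their best rank was 2955 in replicate 1 and 1273 in replicate 4, and none had a site. The fifth farthest was a peak 18655 bp from the start of Su(z)2, with a signal of 274 and ranks 565 and 333.

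Distal intergenic peaks were nearer to starts and in shorter gaps than the sequence open to them. The median distance to the nearest transcript start was 1902 bp (quartiles 1114 and 4198, range 509 to 34615), and 195 of the 268 lay upstream of that start and 73 downstream. The same split of eligible sequence is not given. Of the peaks, 20.5% lay 501 to 1000 bp from a start, against 8.06% of the 29.8 Mb of eligible off-X sequence, and 6.72% lay beyond 10000 bp, against 33.0% of it. Per Mb this was 22.9 peaks in the nearest band and 1.83 in the farthest. Gaps of up to 2000 bp had 35.4 peaks per Mb and gaps over 20000 bp had 4.44. The nearest summit outside the 500 bp limit, at 509 bp, had a signal of 112, and the intergenic summit just within it, at 495 bp, had a signal of 374. The site was at 9.09%, 10%, 9.41% and 13.3% of peaks in the successive bands out to 10000 bp, and none of the 18 peaks beyond 10000 bp had a site.

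**Figure D4:**
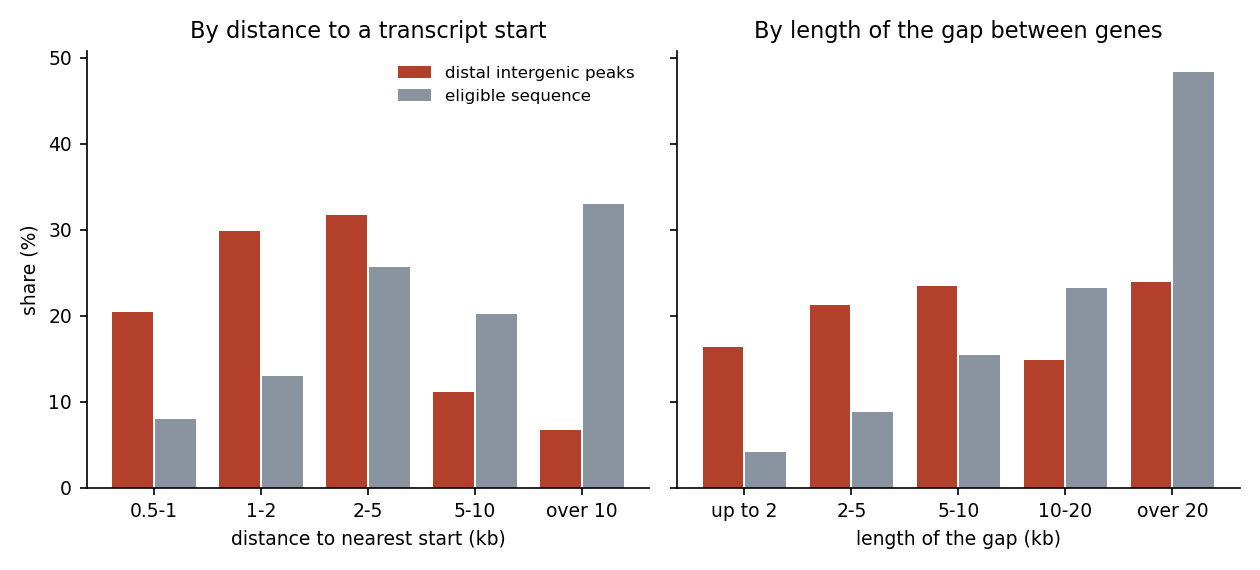
Share in percent of the 268 distal intergenic peaks (red) and of the eligible off-X sequence (grey), by distance to the nearest transcript start (left) and by length of the gap between genes (right), in kb. Peaks exceed sequence in the bands up to 5 kb from a start, and fall below it in gaps over 20 kb, with 23.9% of peaks and 48.4% of sequence.

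Peaks were densest between genes whose starts face each other. Gaps between such divergent genes held 95 peaks (35.4%), against 21.4% of eligible sequence. Tandem gaps held 125 (46.6%), against 52.2%, and convergent gaps 48 (17.9%), against 26.3%. Per Mb these were 14.9, 8.04 and 6.12 peaks. The nearest gene edge was a 5′ end for 155 peaks (57.8%), against 46.0% of eligible sequence. It was a 3′ end for 113 (42.2%), against 54.0%. By arm, 2L held 77 peaks (11.6 per Mb), 2R 50 (7.05), 3L 82 (9.28), 3R 54 (7.62) and the small chromosome 4 held 5 in 0.169 Mb. These are descriptions of 1 list, and the peaks of a gap are not independent of each other.

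An ncRNA gene lay next to 124 of the 268 peaks on at least 1 side. Of 536 flanks, 380 were protein-coding genes, 149 ncRNA genes and 6 tRNA genes, and 1 was a pseudogene. Flanks were counted per peak, so a shared gap counts again for each of its peaks. The share over all eligible gaps is not given. The nearest start belonged to a protein-coding gene for 185 peaks and to an ncRNA gene for 80. To the nearest protein-coding start the median distance was 2586 bp. For 88 of the 268 (32.8%) the gene of that start also had a promoter peak in the list. These were 55 of 187 distinct genes (29.4%), against 19.1% of all 11749 off-X protein-coding genes. Of the 268 summits, 2 lay in a transposable element model, beside alphaTub84B and between fuss and toy.

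The flanking protein-coding genes numbered 339, or 2.89% of those off the X. Among lists of gene families, segmentation, Hox and homeodomain genes stood highest by number, with 14 of 73 genes flanking a distal intergenic peak (19.2%). They included hry (signal 335 at its strongest), abd-A, a Hox gene of the abdomen (271, ranks 644 and 353, 8354 bp from the gene), and Rx, a retinal homeobox gene (265). Of the list of GATA, T-box and heart genes 4 of 19 did (21.1%), namely srp and GATAe, which share 1 peak with a signal of 114, H15 (94.6) and zfh2 (93.6). By name zfh2 is a zinc finger homeodomain gene, and it is counted here as listed. Of nuclear receptor and ecdysone genes 4 of 33 did (12.1%): Eip75B (639), Hr51 (155), Blimp-1, a repressor that times Ftz-F1 expression in prepupae (110), and Hr38 (99.7). Of neuroblast and proneural genes 4 of 34 did (11.8%), with klu (135), dimm (133) and sens-2 (128) as the strongest. Signalling ligand genes had 3 of 33 (9.09%), namely Wnt4 (135), vn (129) and daw (122).

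The other lists lay closer to the share of all genes or below it. Ion channel and synaptic genes had 4 of 89 (4.49%), with ppk24 (183), Rim (122) and Syt1 (122) the strongest. Axon guidance and adhesion surface genes had 3 of 94 (3.19%), namely dpr17 (131), 18w (99.4) and Dscam1 (98.6). Chemoreceptor and rhodopsin genes had 6 of 207 (2.90%), led by Rh5 (2261), Gr92a (224) and Or45b (167). Cytochrome P450 and detoxification genes had 4 of 148 (2.70%), including Ugt36F1 (168), Cyp9f2 (125) and shd (119), whose enzyme makes the active form of ecdysone. Of ribosomal protein genes 1 of 78 (RpS23, 128) and of cuticle protein genes 1 of 115 (Cpr76Ba, 123) did.

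**Figure D5:**
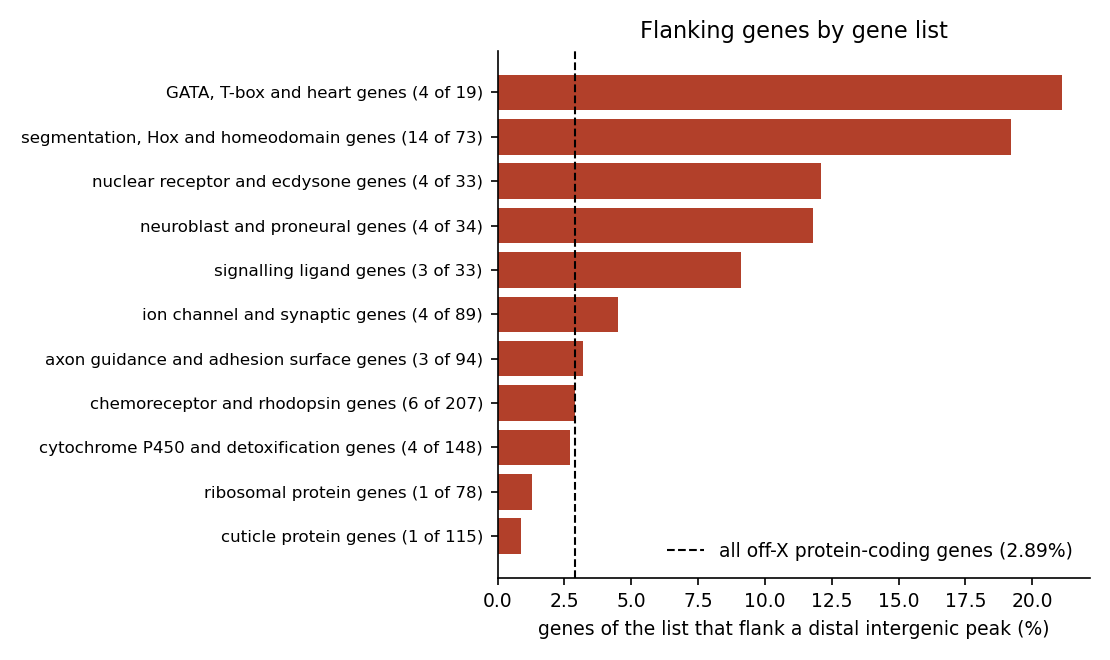
Percent of the off-X genes of each list that flank a distal intergenic peak, with the number of genes in brackets. The dashed line marks 2.89%, the share of all off-X protein-coding genes, and the bars run from 0.870% of cuticle protein genes to 21.1% of GATA, T-box and heart genes.

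The amount of eligible sequence beside a gene moved with these shares. Its median was 17.3 kb for segmentation, Hox and homeodomain genes, 6.98 kb for GATA, T-box and heart genes and 3.03 kb for nuclear receptor and ecdysone genes, against 0.055 kb for all off-X protein-coding genes. Counted per Mb of that sequence, with each peak counted for the gene on either side of it, peaks came to 14.4 for segmentation, Hox and homeodomain genes, 13 for GATA, T-box and heart genes and 49.6 for nuclear receptor and ecdysone genes, of which 13 of 17 were at Eip75B. Of the 25 counted for segmentation, Hox and homeodomain genes, 10 were at hry. Chemoreceptor and rhodopsin genes had 11.6 per Mb, with 9 of their 16 at Rh5. Neuroblast and proneural genes had 9.11 per Mb and signalling ligand genes 7.54. Cytochrome P450 and detoxification genes had 5.73, ion channel and synaptic genes 4.49, cuticle protein genes 3.22 and ribosomal protein genes 1.74. The density was 9.01 per Mb for all genes and 1.19 for axon guidance and adhesion surface genes, whose median was 13.5 kb. No test was made over these lists.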

How the data were processed

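Peak lists of chromatin immunoprecipitation sequencing for 1 group, replicates 1 and 4, were analysed in the build dm6. Per the labels, the authors deposited for each replicate, and for both pooled, the peaks and background that entered the irreproducible discovery rate (IDR) step (30000 entries each), and the thresholded IDR list (3960 peaks). The signal per peak and the −log10 q-value are the authors' deposited values, used within 1 list or as ranks. The −log10 q-values were read but support no result. Not given in the sources used here are the threshold of that step, the control, the caller and the aligner. The dm3 lists were not used here.

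Gene models were those of Ensembl release 115 (BDGP6.54) without transposable elements, and sequence came from the release 6 assembly. Peaks were classed by summit in the order promoter (within 500 bp of a start), exon, intron, intergenic. Motifs were sought within 100 bp of summits and in control windows 1000 bp to the right, compared by the exact McNemar test. Control windows were not filtered by gene, start or peak. Shares were compared by Fisher's exact test. Both were two-sided and adjusted by Benjamini-Hochberg, over 12 motifs and over 5 comparisons, with a threshold of 0.05 and 95% Wilson intervals. A replicate's rank is that of the overlapping peak (at least 1 bp) with the nearest summit. The neighbour distance was 5000 bp.

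Named genes were the strongest 20 peaks, the strongest 8 with a site, gaps with 3 or more peaks, the 5 farthest from a start, the 3 largest rank differences each way and up to 3 flanking genes of each of 11 lists by signal. The fourth GATA, T-box and heart gene and the fourth nuclear receptor gene are named beyond this rule. The members and lists were chosen with earlier results of these data known. Scripts (Python 3.11.15, scipy 1.17.1) were tested on simulated data. Alternatives covered the start distance, gene models, the X, the motif, its window and control, overlapping peaks, list depth, rank limits and each replicate left out.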

Additional observations from a re-analysis of the deposited data

How the results depend on the processing

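Of 74 alternative values for the 6 results with a test, 64 kept their direction and their side of the threshold. The difference in site share between distal intergenic summits and control windows passed in all 16 of its alternatives, with folds from 2.55 to 10.5. Against promoters the odds ratio lay between 1.69 and 3.81 and passed in 13 of 14, the exception being the site CAAGGTCA (2.31). Against distal introns no alternative passed, and the odds ratio turned above 1 with the X included (1.09), with a motif window of 50 bp (1.10), in the stronger part of the list (1.21) and with 1 peak per run of overlapping peaks (1.01), and ranged from 0.922 to 1.23 with a replicate left out. The share among the strongest 854 off-X peaks passed with starts at 250 bp (1.40), and the share among the strongest ranks of both replicates passed with protein-coding gene models only (1.39). The odds ratio for a neighbouring summit turned to 1.25 in the stronger part of the list, without passing, and passed within 10000 bp (0.674). The causes were not tested. The number of peaks, which has no test, ran from 213 to 345 over 7 alternatives. Leaving out a replicate meant ranking the strongest 3960 peaks of the other, so the share in both replicates has no such value. The settings that kept transposable elements as genes, that left out the 3 gaps with most members, and that used 1 peak per run for strength and neighbours were chosen after seeing the data. No paired analysis was possible because there is 1 group. Read depth is unknown, neighbouring peaks share regions, and a replicate spread from 2 libraries may be technical.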

Other observations

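Pooled peaks below the IDR threshold gave a further view of sequence between genes. Distal intergenic summits made up 7.85% of the off-X IDR peaks, against 2403 of 21274 off-X sub-threshold peaks (11.3%, 95% Wilson interval 10.9 to 11.7). The Ftz-F1 site was within 100 bp of 9.33% of the distal intergenic IDR summits, against 54 of the 2403 sub-threshold ones (2.25%, interval 1.73 to 2.92), whose control windows held it in 21 cases (0.874%). The median signal value was 136 in the IDR group and 30 in the sub-threshold group. Of the 2403, 480 (20%) lay in the 189 gaps that also hold a distal intergenic IDR peak. The share of eligible sequence in those gaps is not given, so the 20% has no background here. No test was made of the differences between IDR and sub-threshold peaks.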
